A study of Mus musculus with 4 samples.

Results

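The suppressors of cytokine signaling, *Socs1* to *Socs7*, and their relative *Cish* were followed in mTFP-positive cells sorted from the retinas of control and *Rax* iCKO mice, to ask whether the lower level of *Socs3* was shared by the family. The 8 genes were selected by name, and the family was picked because the study had singled out *Socs3* as lower in these same 4 libraries. The difference of *Socs3* between genotypes is therefore given as a description with no test, and only the other 7 members were tested. All 8 were found among the 24322 gene symbols of the files, and all 8 were among the 12363 genes with a mean of at least 1 FPKM (the fragments on a gene scaled by transcript length and by the reads mapped in the library) over the 4 libraries.

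RNA-seq libraries were made from 4 mice, 1 mouse a library. The 2 control mice, numbered 7984 and 3911, were *Rax* flox/WT, and the 2 *Rax* iCKO mice, numbered 7983 and 3914, were *Rax* flox/flox. All 4 also carried Rlbp1-CreERT2 and R26-CAG-LoxP-mTFP1, all received tamoxifen at P4, and all were harvested at P14, so the controls also carried the Cre, the reporter and 1 floxed allele. The promoter of *Rlbp1*, a Müller glial gene for a retinoid-binding protein, drives the Cre, and cells were kept for their mTFP signal, which reports that Cre acted and not that *Rax* was lost.

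SOCS proteins limit signaling from cytokine receptors. Such receptors use JAK kinases to phosphorylate STAT factors, which enter the nucleus and switch on target genes, among them *Cish*, *Socs1* and *Socs3*, so that the inhibitors close a feedback loop. Each family member has an SH2 domain that binds phosphorylated tyrosines and a SOCS box that recruits elongins and a cullin to mark the bound protein for degradation, and Socs1 and Socs3 in addition inhibit the JAK kinases themselves. In Müller glia, the radial support cells of the retina, cytokines of the interleukin-6 family act through the gp130 receptor and Stat3, the route on which Socs3 acts.

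*Rax*, the targeted gene, read 189 FPKM in control mouse 7984 and 181 in control mouse 3911, against 111 in *Rax* iCKO mouse 7983 and 98.4 in *Rax* iCKO mouse 3914, so its RNA was lower in both *Rax* iCKO mice but not absent. The 17 Müller glial markers summed to between 11762 and 17400 FPKM in the 4 libraries, beside 4457 to 11043 FPKM for 9 bipolar cell markers and 1084 to 1669 FPKM for 10 rod markers, so the sorted cells carried glial RNA together with RNA of neurons. The depth, estimated from the steps between low values, was 12710000 mapped reads for control mouse 7984 and between 9270000 and 9430000 for the others. Libraries of neighbouring mouse numbers (7983 with 7984, 3911 with 3914) were closer to each other than libraries of 1 genotype, and differences are therefore also given within these pairs. *Xist*, the RNA of the inactive X chromosome, read 24.5 and 21.2 FPKM in the controls against 0.012 and 0.006 in the *Rax* iCKO mice, so that genotype and whatever set *Xist* apart cannot be told apart here. In RNA of sorted cells in bulk, fewer cells of a type and less RNA per cell cannot be told apart either.

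*Socs3* differed between the genotypes by more than any other member in the ratio of mean FPKM and in log2(FPKM + 1). As a ratio of FPKM within the pair of mice 3914 and 3911, *Socs1* differed further, at 0.125 against 0.238 for *Socs3*. The level of *Socs3* read 29.1 FPKM in control mouse 7984 and 28.6 in control mouse 3911, against 9.27 in *Rax* iCKO mouse 7983 and 6.80 in *Rax* iCKO mouse 3914. The controls were almost equal, and both *Rax* iCKO libraries lay far below them. Averaged by genotype it was 28.9 ± 0.320 FPKM in control against 8.04 ± 1.75 FPKM in *Rax* iCKO (SD, n = 2 each), which is a ratio of 0.279. On the scale of log2(FPKM + 1) the difference was -1.74 over both pairs, with -1.55 for mouse 7983 against 7984 and -1.93 for mouse 3914 against 3911. Among the genes above 0 in a library, the level of *Socs3* stood at percentiles 78.0 and 77.8 in the controls and 54.3 and 48.1 in *Rax* iCKO. Its log2 difference was the 26th from the lowest of 12363, and of those 26 genes 7 had both *Rax* iCKO libraries below both controls.

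The lower level was not seen across the family. Both *Rax* iCKO libraries were below both controls for 2 of the 8 members, *Socs3* and *Socs1*, beside 14.1% of all genes tested, and above both controls for 2, *Socs6* and *Socs7*, beside 15.4% of all genes. After quantile normalization *Socs2* joined the higher members, which made 3. The other 4, *Socs2*, *Socs4*, *Socs5* and *Cish*, had overlapping genotypes. Since *Socs3* is among the 2 lower members by choice, 1 of the other 7 was lower and 2 were higher. Of these 7, 5 had a log2 difference above 0 and 2 below 0, and their median was 0.09, beside -0.0044 for all genes tested. Differences were tested with limma across all 12363 genes with Benjamini-Hochberg adjustment. It called 2 genes lower (0.0162%), 1 of them *Xist*, and 1 gene higher (0.00809%) at an adjusted p under 0.05. None of the 7 members tested was among these genes. At an unadjusted p under 0.05 it called 354 genes (2.86%) and none of the 7, *Socs1* coming nearest at an unadjusted p of 0.059 in limma. *Socs1* passed that unadjusted threshold under 6 of the 9 alternative settings that kept it, and *Socs2* under 1, with mice paired by number. The 7 adjusted p-values from limma were all 0.9999. With so few calls in all, the intervals say more than the p-values. For *Socs2*, *Socs4*, *Socs5*, *Socs6*, *Socs7* and *Cish* the 95% intervals of the log2 difference together ran from -0.67 to 1.05, whereas that of *Socs1* reached down to -1.72.

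**Figure D1:**
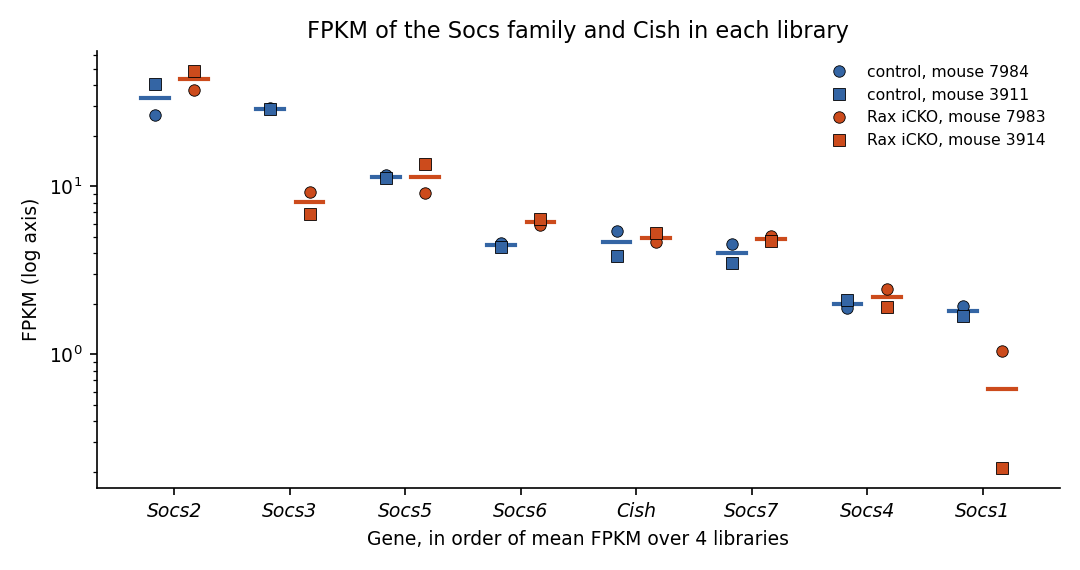
FPKM of the 8 genes on a log axis, in order of their mean over the 4 libraries. Points are single libraries (blue for control, orange for *Rax* iCKO; circles for mice 7984 and 7983, squares for mice 3911 and 3914) and bars are means of n = 2; the orange points of *Socs3* at 9.27 and 6.80 FPKM lie well below the blue points at 29.1 and 28.6, and apart from *Socs1* no other gene shows such a gap.

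**Figure D2:**
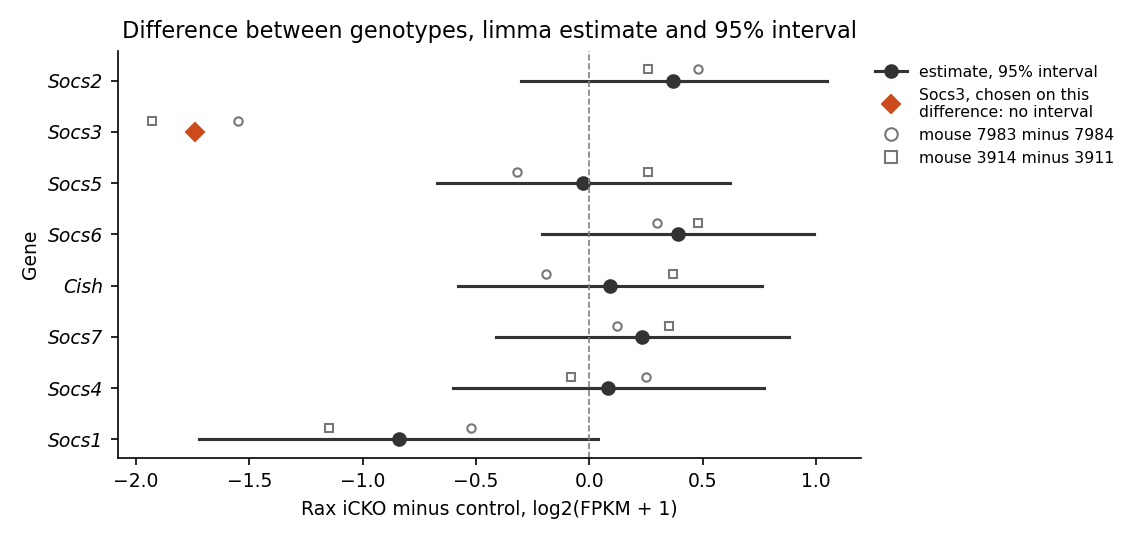
Difference between *Rax* iCKO and control in log2(FPKM + 1). Filled points and lines are limma estimates with 95% intervals, open circles are mouse 7983 minus 7984 and open squares mouse 3914 minus 3911; *Socs3* was chosen on this difference and is drawn without an interval, at -1.74, while the intervals of the other 7 genes include 0.

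*Socs1* is the member nearest to *Socs3* in how it acts, since it also blocks JAK kinases, and it is best known as the brake on interferon signaling. Its level read 1.93 FPKM in control mouse 7984 and 1.69 in control mouse 3911, against 1.04 in *Rax* iCKO mouse 7983 and 0.211 in *Rax* iCKO mouse 3914. The *Rax* iCKO libraries were both lower but also differed from each other. The means were 1.81 ± 0.166 (SD, n = 2) and 0.626 ± 0.587 (SD, n = 2), a ratio of 0.346, and the log2 difference was -0.84 (standard error 0.36, 95% interval -1.72 to 0.04, limma adjusted p = 0.9999). Within the pairs it was -0.52 for mouse 7983 against 7984 and -1.15 for mouse 3914 against 3911. These values rest on few reads. The 4 values of *Socs1* were whole multiples of 1 read, within 0.005 of a read, at 25, 16, 10 and 2 reads in mice 7984, 3911, 7983 and 3914, or at a common multiple of these. If they are those reads, the ratio of *Rax* iCKO to control per mapped read was 0.344 with an exact binomial 95% interval of 0.164 to 0.666, which covers counting error only and not the spread between mice. The interval of the log2 difference, which uses that spread, includes 0. The addition of 1 to each FPKM weighs on a gene this low: with 0.1 added the log2 difference was -1.68, and without *Rax* iCKO mouse 3914 it was -0.46. The 10 microglial markers summed to 72.7 and 84.2 FPKM in the controls and to 119 and 22.9 FPKM in *Rax* iCKO mice 7983 and 3914, lowest in the library where *Socs1* was lowest, and their part in the *Socs1* result was not tested.

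The start sites of *Socs3*, *Socs1* and *Cish*, members that STAT factors are known to induce, are shown because *Socs3* and *Socs1* were lower in both *Rax* iCKO libraries and *Cish* was not. *Socs2*, a STAT target too, was not lower either. Promoter windows of RefSeq (GRCm38.p6, 250 bases before to 50 after a start) were given for 4 of the 8 members, *Socs1*, *Socs3*, *Socs4* and *Cish*. They were searched on both strands for TAATT, the core that the study took for Rax binding, and for TTCNNNGAA, the palindromic core that STAT factors bind; the letters of neither core contain the other. Printed are the 250 bases before the start for *Socs3* (chr11:117969367-117969616, minus strand) and *Socs1* (chr16:10785537-10785786, minus strand), and for *Cish* the 20 bases from its start (chr9:107296659-107296678, plus strand), with matches to TTCNNNGAA in capitals.
*Socs3*: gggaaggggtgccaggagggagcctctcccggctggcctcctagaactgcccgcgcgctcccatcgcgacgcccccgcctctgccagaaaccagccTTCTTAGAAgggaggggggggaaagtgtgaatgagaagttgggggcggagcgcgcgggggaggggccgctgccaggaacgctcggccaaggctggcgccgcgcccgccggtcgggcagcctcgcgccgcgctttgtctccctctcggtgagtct
*Socs1*: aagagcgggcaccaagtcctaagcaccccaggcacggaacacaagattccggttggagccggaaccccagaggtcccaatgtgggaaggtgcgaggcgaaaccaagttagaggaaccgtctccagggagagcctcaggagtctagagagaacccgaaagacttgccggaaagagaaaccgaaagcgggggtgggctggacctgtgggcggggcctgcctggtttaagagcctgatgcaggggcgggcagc
*Cish*: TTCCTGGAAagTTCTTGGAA
TTCNNNGAA occurred once in the *Socs3* window, at bases -154 to -146 from the RefSeq start, and at 2 places in the *Cish* window, at bases 1 to 9 and 12 to 20, and not in the windows of *Socs1* and *Socs4*. Of all 32851 windows 8.3% held it and 0.46% held it at 2 or more places. TAATT was in none of the 4 windows, beside 27.0% of all windows. The study predicted 2 TAATT sites in the longer *Socs3* sequence of its reporter. It reported activation of that reporter by Rax, and none once the sites were mutated. The *Socs3* window is not the whole promoter. It lies within the span of the gene in GENCODE, which reaches further upstream, to base 117970047. The coding transcript of *Socs3* starts by GENCODE 180 bases downstream of the RefSeq start, so the window runs from -430 to -131 of that transcript. The study's reporter reached further upstream, and the sequence beyond the window was not analysed here. The *Cish* window lies inside the first exon of the *Cish* transcript with the longest coding sequence in GENCODE. GC content was 73.3% for *Socs3*, 70.7% for *Socs4*, 63.3% for *Socs1* and 53.3% for *Cish*, beside a median of 52.7% over all windows.

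*Cish*, the founding member, is induced by Stat5 and competes with it for docking sites on receptors such as the growth hormone receptor. It read 5.45 FPKM in control mouse 7984 and 3.85 in control mouse 3911, against 4.65 in *Rax* iCKO mouse 7983 and 5.25 in *Rax* iCKO mouse 3914. The *Rax* iCKO values both lay between the controls, and the pairs went opposite ways, by -0.19 and 0.37 on the log2 scale. The log2 difference over all 4 libraries was 0.09 (standard error 0.28, 95% interval -0.58 to 0.76, limma adjusted p = 0.9999). As whole reads the values came to 68, 35, 43 and 48 reads in the order 7984, 3911, 7983 and 3914, or a common multiple, a ratio of 1.04 per mapped read (exact binomial 95% interval 0.774 to 1.39, counting error only). Exons of *Cish* overlap exons of *Gm17040* and *Gm17041* on the opposite strand, whose reads cannot be told apart from its own without strand.

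*Socs2*, the brake on growth hormone signaling through Stat5, was the most abundant member in 3 of the 4 libraries. It read 26.6 FPKM in control mouse 7984 and 40.4 in control mouse 3911, against 37.6 in *Rax* iCKO mouse 7983 and 48.7 in *Rax* iCKO mouse 3914. The genotypes overlapped, since control mouse 3911 lay above *Rax* iCKO mouse 7983, but within both pairs the *Rax* iCKO mouse was higher, by 0.48 for mouse 7983 against 7984 and by 0.26 for mouse 3914 against 3911. The log2 difference was 0.37 (standard error 0.28, 95% interval -0.30 to 1.05, limma adjusted p = 0.9999). Bipolar cell markers also had their lowest sum in mouse 7984, at 4457 FPKM against 6156 FPKM in mouse 7983. Of the second pair the control sum was higher, at 11043 FPKM in mouse 3911 against 9126 FPKM in mouse 3914. *Pcp2* alone made 6515 and 4846 FPKM of these sums. In mouse 3914 against 3911 *Prkca*, *Grm6*, *Trpm1*, *Cabp5* and *Lhx4* were higher, and *Vsx1*, *Pcp2*, *Gng13* and *Isl1* lower. Of the 9 markers, 8 had a log2 difference between genotypes above 0 and 1 below 0 (median 0.31). In both *Rax* iCKO libraries 4 were higher, beside 15.4% of all genes, and none was lower, beside 14.1%. The part of these markers in the *Socs2* values was not tested.

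*Socs6* and *Socs7*, which act on insulin receptor and Kit signaling and, with Cul5, on the Reelin adaptor Dab1, were both higher in *Rax* iCKO. *Socs6* read 4.59 FPKM in control mouse 7984 and 4.33 in control mouse 3911, against 5.87 in *Rax* iCKO mouse 7983 and 6.42 in *Rax* iCKO mouse 3914. The genotypes did not overlap, with means of 4.46 ± 0.185 and 6.15 ± 0.383 (SD, n = 2 each), a ratio of 1.38. The log2 difference was 0.39 (standard error 0.25, 95% interval -0.21 to 0.99, limma adjusted p = 0.9999), with 0.30 and 0.48 within the pairs. As whole reads *Socs6* came to 297 reads in the controls and 347 in *Rax* iCKO, or a common multiple, and the ratio per mapped read was 1.37 (exact binomial 95% interval 1.17 to 1.61, for counting error only and not the spread between mice). *Socs7* read 4.55 FPKM in control mouse 7984 and 3.49 in control mouse 3911, against 5.03 in *Rax* iCKO mouse 7983 and 4.71 in *Rax* iCKO mouse 3914. Its groups did not overlap but came close, at 4.71 against 4.55 FPKM. The log2 difference of *Socs7* was 0.23 (standard error 0.26, 95% interval -0.41 to 0.88, limma adjusted p = 0.9999), with 0.12 and 0.35 within the pairs.

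*Socs4* and *Socs5*, a closely related pair with long amino-terminal regions that promote degradation of the epidermal growth factor receptor, did not separate the genotypes. *Socs4* read 1.89 FPKM in control mouse 7984 and 2.09 in control mouse 3911, against 2.44 in *Rax* iCKO mouse 7983 and 1.92 in *Rax* iCKO mouse 3914 (log2 difference 0.08, standard error 0.28, 95% interval -0.60 to 0.77, limma adjusted p = 0.9999). *Socs5* read 11.7 FPKM in control mouse 7984 and 11.2 in control mouse 3911, against 9.16 in *Rax* iCKO mouse 7983 and 13.6 in *Rax* iCKO mouse 3914 (log2 difference -0.03, standard error 0.26, 95% interval -0.67 to 0.62, limma adjusted p = 0.9999). For *Socs5* the *Rax* iCKO libraries lay on either side of the controls, by -0.32 and 0.26 within the pairs. Counted over pairs, 2 of the 8 members, *Socs1* and *Socs3*, were lower in the *Rax* iCKO mouse of both pairs, beside 31.7% of all genes, and 3 members, *Socs2*, *Socs6* and *Socs7*, were higher in both, beside 30.7% of all genes.

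By the ratio of mean FPKM without a test, 1 of the 7 members other than *Socs3* was under 0.5, *Socs1*, whose level rests on few reads, beside 1.02% of all genes tested, and none was over 2, beside 0.841%. FPKM are divided by length, so levels can be set side by side between genes. Over the 4 libraries the order was *Socs2* (38.3 ± 9.14 FPKM), *Socs3* (18.4 ± 12.1), *Socs5* (11.4 ± 1.82), *Socs6* (5.30 ± 1.004), *Cish* (4.80 ± 0.721), *Socs7* (4.44 ± 0.667), *Socs4* (2.09 ± 0.252) and *Socs1* (1.22 ± 0.769; SD, n = 4). The gaps in this order, from *Socs5* to *Socs6* and from *Socs7* to *Socs4*, had the same sign in 4 of 4 libraries, by 0.98 ± 0.29 and 0.81 ± 0.20 in log2(FPKM + 1) (SD, n = 4). No p-value is given, since these libraries also set the order and 4 of them cannot give a p under 0.125 in an exact sign-flip permutation test. The other 5 neighbouring pairs had the same sign in 3 of 4 libraries. At the top of the order, in control mouse 7984 *Socs3* stood first of the 8, in mice 3911 and 7983 second, and in *Rax* iCKO mouse 3914 it stood behind both *Socs2* and *Socs5*.

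The 8 genes together summed to 85.7 and 95.7 FPKM in control mice 7984 and 3911 and to 75.01 and 87.6 FPKM in *Rax* iCKO mice 7983 and 3914. *Socs3* made up 33.9% and 29.9% of that sum in the controls and 12.4% and 7.76% in *Rax* iCKO, and *Socs2* 31.0% and 42.2% in the controls and 50.1% and 55.6% in *Rax* iCKO. The ratio of *Socs3* to *Socs2* was 1.09 and 0.709 in the controls and 0.247 and 0.140 in *Rax* iCKO, values that contain the difference *Socs3* was chosen for. Without *Socs3*, the 7 other members summed to 56.6 and 67.0 FPKM in the controls and to 65.7 and 80.8 FPKM in *Rax* iCKO. These groups overlapped, with means of 61.8 ± 7.36 and 73.3 ± 10.7 FPKM (SD, n = 2 each), a ratio of 1.19, and a two-sided exact permutation test gave p = 0.667, where the smallest possible with 2 mice against 2 is 0.333. Within both pairs the sum was higher in the *Rax* iCKO mouse.

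**Figure D3:**
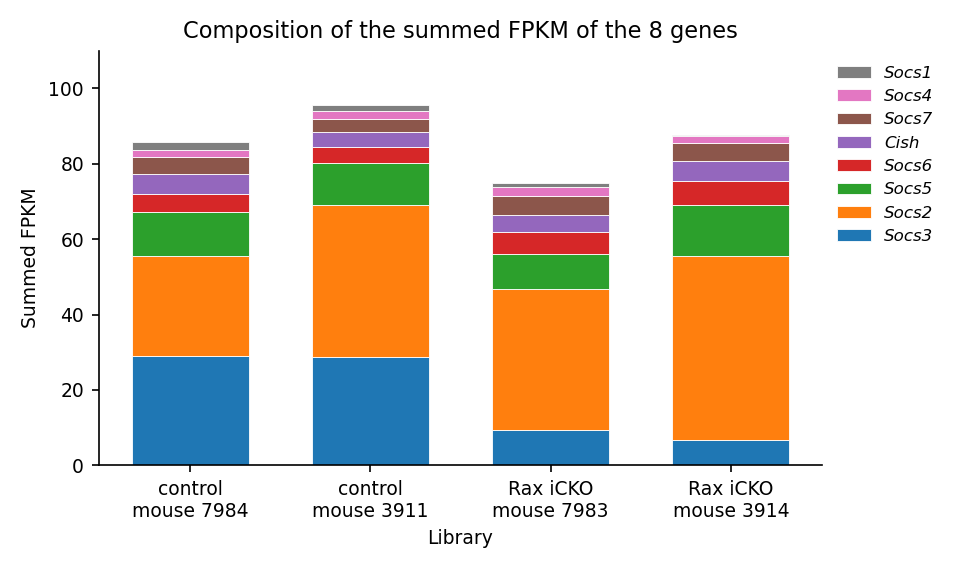
Summed FPKM of the 8 genes in each library, stacked by gene from 0. The *Socs3* segment at the base shrinks from 29.1 and 28.6 FPKM in the controls to 9.27 and 6.80 FPKM in *Rax* iCKO, while the summed height of the other 7 genes overlaps between genotypes.

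The members also differ in the build of their genes, which the choice did not use (GENCODE models on GRCm38). The coding sequence lies in a single exon in *Socs1*, *Socs3*, *Socs4*, *Socs5* and *Socs6*, beside 5.8% of the 11375 tested genes with a coding model, whereas *Socs2* has 2 coding exons, *Cish* 3 and *Socs7* 9. *Socs1* lies on chromosome 16 (10782240 to 10785536, minus strand), *Socs2* on chromosome 10 (95385362 to 95417180, minus strand), *Socs3* on chromosome 11 (117966079 to 117970047, minus strand) and *Socs4* on chromosome 14 (47276931 to 47296102, plus strand). *Socs5* lies on chromosome 17 (87107679 to 87137839, plus strand), *Socs7* on chromosome 11 (97362551 to 97398542, plus strand) and *Cish* on chromosome 9 (107296026 to 107302784, plus strand). No pair of members is adjacent, although *Socs3* and *Socs7* share a chromosome. The AU-rich pentamer ATTTA, known from the 3′ untranslated regions of short-lived transcripts, occurred 4 times in that region of *Socs3* and 0 times in that of *Socs1*. It occurred between 2 and 17 times in the other 6, most often in *Socs4*. Per kilobase these counts ranged from 0 in *Socs1* and 0.96 in *Socs7* to 3.28 in *Socs4*, with 2.71 in *Socs3*, beside a median of 1.23 over 11200 tested genes with such a region. The 2 members that were lower in *Rax* iCKO thus stood on either side of that median.

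The rest of the pathway was taken from lists of its parts, chosen with earlier results of these data known, and no gene of them had a limma adjusted p under 0.05. Some genes stand on more than 1 list. Upstream of the SOCS proteins, 3 JAK kinases could be tested and none separated the genotypes. *Jak1* (35.3 and 30.1 FPKM in control, 37.0 and 32.6 FPKM in *Rax* iCKO), *Jak2* and *Tyk2* had log2 differences of 0.09 to 0.26. Of the 5 gp130 receptor genes tested, none separated the genotypes, and all 5 differences were at or below 0 (median -0.25). *Il6st*, which encodes gp130 itself, read 29.6 FPKM in control mouse 7984 and 13.8 in control mouse 3911, against 22.4 in *Rax* iCKO mouse 7983 and 11.8 in *Rax* iCKO mouse 3914, and so followed the pairs of mouse numbers more than genotype. *Lifr*, *Osmr*, *Cntfr* and *Il11ra1* had log2 differences of -0.15, -0.34, -0.25 and 0.00.

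Of the ligands of these receptors 2 of 9 were high enough to test, and *Cntf* was lower in both *Rax* iCKO libraries. *Cntf*, ciliary neurotrophic factor, read 18.9 and 14.3 FPKM in control against 8.10 and 13.1 in *Rax* iCKO (log2 difference -0.62, standard error 0.30, limma adjusted p = 0.9999). *Il6* was listed at 0 in all 4 libraries. Among receptors for other cytokines 2 of 7 were lower in both *Rax* iCKO libraries, *Il10rb* (log2 difference -0.42) and the interferon gamma receptor chain *Ifngr2* (-0.23), and none was higher in both. Of all genes 14.1% were lower in both and 15.4% higher in both. None of the 10 tested receptors and adaptors that *Socs2* and *Socs4* to *Socs7* are known to bind, such as *Ghr*, *Egfr* and *Dab1*, separated the genotypes.

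Of 5 STAT genes tested 3 were higher in both *Rax* iCKO libraries, beside 15.4% of all genes, and none was lower in both, beside 14.1%. The median log2 difference of the 5 was 0.20. *Stat3* read 30.5 FPKM in control mouse 7984 and 25.8 in control mouse 3911, against 32.2 in *Rax* iCKO mouse 7983 and 32.5 in *Rax* iCKO mouse 3914 (log2 difference 0.20, standard error 0.21, limma adjusted p = 0.9999). *Stat2* (0.35) and *Stat5b* (0.23) also did not overlap. *Stat5a* (-0.03) and *Stat6* (-0.07) overlapped.

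Of 9 elongin, cullin and partner genes, the machinery that SOCS proteins share, 7 had a log2 difference below 0 and 2 above, with a median of -0.19 (-0.07 after quantile normalization), and 1 was lower and 1 higher in both *Rax* iCKO libraries. *Rnf7*, the RING subunit that works with Cul5, was lower in both *Rax* iCKO libraries (115 and 143 FPKM in control, 95.2 and 92.1 FPKM in *Rax* iCKO), and *Arih2*, a ligase that works with Cul5, was higher (21.3 and 21.1 against 23.2 and 31.6 FPKM). Other SOCS box genes, the Asb, Spsb, Wsb and Rab40 families, were lower in both *Rax* iCKO libraries in 1 of 15 cases, *Spsb4* (log2 difference -0.40), and higher in 3, with *Asb13* furthest (0.35). Inhibitors of JAK-STAT signaling outside the family were higher in both *Rax* iCKO libraries in 3 of 11 cases and lower in none, with *Sh2b3*, an adaptor that restrains Jak2, at 0.44 and the ubiquitin ligase *Cblb* at 0.28. These counts stand beside 14.1% of all genes lower and 15.4% higher in both *Rax* iCKO libraries.

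*Socs3* is itself a STAT3 target and responds quickly to stimulation, so other genes of these kinds were counted. Of 17 other STAT3 targets tested 7 were lower in both *Rax* iCKO libraries and 2 higher, with a median log2 difference of -0.21. Of these 7, 3 (*Fos*, *Junb* and *Klf6*) are also on the list of immediate early genes described next, so the counts of both lists overlap. *Cebpd*, a transcription factor induced by Stat3, read 23.2 and 30.6 FPKM in control against 10.95 and 9.80 in *Rax* iCKO (log2 difference -1.28, standard error 0.24, limma adjusted p = 0.9999), and its relative *Cebpb* had a difference of -0.88. *Gfap*, the glial filament gene that Stat3 induces, overlapped, at 4.80 and 8.94 FPKM in control and 4.38 and 7.14 FPKM in *Rax* iCKO. Of 7 tested STAT5 targets 3 were lower and 1 higher, led by the cyclin gene *Ccnd1* (-0.86) and *Id1* (-0.49), while *Socs2* and *Cish*, STAT5 targets within the family, were not lower. After quantile normalization 2 of the 7 were lower and none higher, and with equal medians 2 were lower and 1 higher. Of 14 interferon targets tested 3 were lower and 1 higher, the lower led by the immunoproteasome genes *Psmb8* (-0.97) and *Psmb9* (-0.46), and 2 were lower and 1 higher after quantile normalization. Each count is to be read beside the 14.1% lower and 15.4% higher of all genes.

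Immediate early genes, which cells switch on within minutes of a stimulus such as tissue dissociation, were lower in both *Rax* iCKO libraries in 15 of 22 cases, beside 14.1% of all genes, and higher in none, with a median log2 difference of -0.48. *Ier3* read 29.6 and 24.7 FPKM in control against 15.6 and 8.81 in *Rax* iCKO (log2 difference -1.14, standard error 0.31, limma adjusted p = 0.9999). *Egr2* read 4.60 and 4.36 FPKM in control against 1.84 and 1.51 in *Rax* iCKO (log2 difference -1.04, standard error 0.27, limma adjusted p = 0.9999). After quantile normalization 11 of the 22 were lower and the median was -0.43. Markers of cell types lay apart as well: rod markers were lower in both *Rax* iCKO libraries in 8 of 10 cases (sums of 1655 and 1669 FPKM in control, 1175 and 1084 FPKM in *Rax* iCKO) and Müller glial markers in 5 of 17 (17400 and 13126 against 11952 and 11762 FPKM). After quantile normalization 6 rod markers were lower and 1 higher, and 1 Müller glial marker was lower; with the medians of the libraries made equal, 9 rod and 7 Müller glial markers were lower. The part of these genes in the *Socs3* result was not tested.

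**Figure D4:**
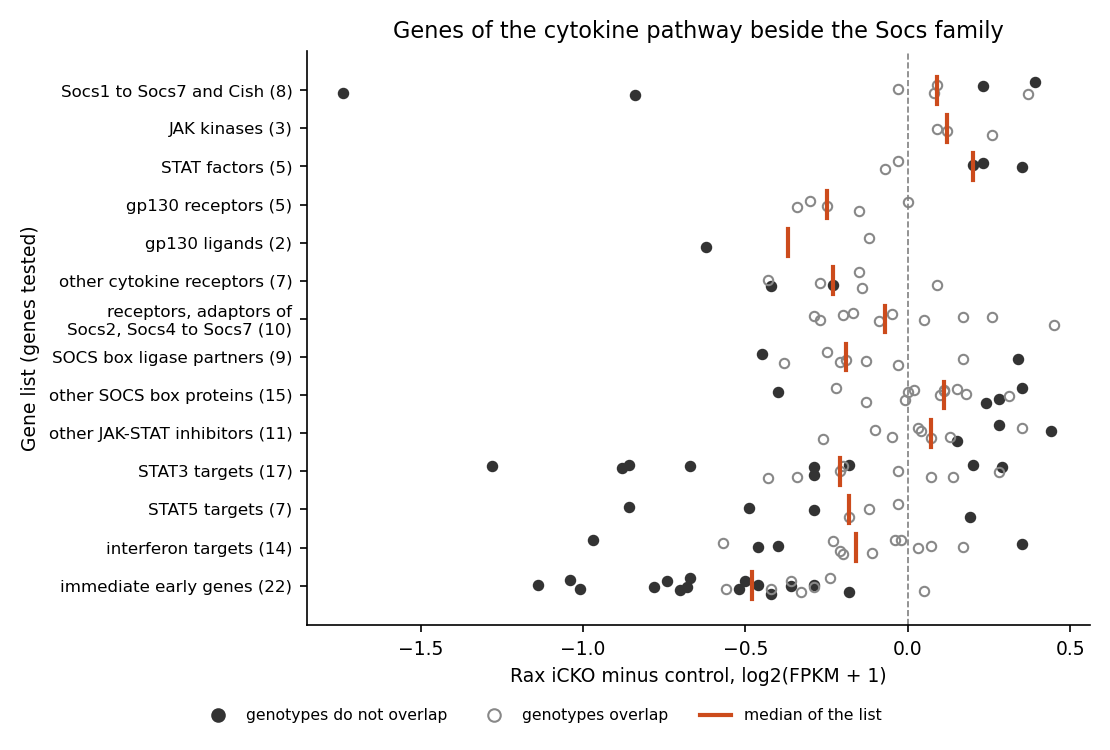
Difference between *Rax* iCKO and control in log2(FPKM + 1) for each tested gene of the family and of 13 pathway lists, with the number of genes tested in brackets. Filled points are genes whose genotypes do not overlap, open points overlap and orange bars are list medians; *Socs3* at -1.74 is the leftmost point, and the immediate early genes sit at a median of -0.48.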

How the data were processed

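The authors aligned single-end reads of mTFP-positive cells with TopHat and Bowtie2 to the mouse build mm10, handled them with SAMtools, and deposited the Cufflinks FPKM of every gene symbol, in 1 file for each library. The submitters' processing notes name TopHat2 2.1.1, Bowtie2 2.2.8, SAMtools 0.1.18 and Cuffdiff 2.2.1, and the study's methods name other releases of the first 3. The labels name a spin-column kit for the RNA where the methods name TRIzol, and use of strand is not given in the sources used here. FPKM are relative to the reads mapped in that library, and were used without further scaling.

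The members and lists were chosen with earlier results of these data known. The test between genotypes was limma 3.58.1 under R 4.3.3 (eBayes with a variance trend) on log2(FPKM + 1) over genes with a mean of at least 1 FPKM, with Benjamini-Hochberg adjustment. The added 1 understates the change of low genes. Nothing in the labels says more of the replicates than that each is 1 mouse. For a single value the test was an exact permutation over libraries (scipy 1.17.1). Of each pathway list the text names genes with an adjusted p under 0.05, otherwise the 2 of largest log2 difference among those whose genotypes do not overlap, and in full the JAK, STAT and gp130 receptor genes; *Xist*, *Il6*, *Ghr*, *Egfr*, *Dab1* and *Gfap* were added after their values were seen. Results for 2 pathway genes are not reported here, and the lists and their counts leave them out.

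The relative depth of the libraries was estimated from values under 1 FPKM. The absolute depth came from 474 genes under 0.5 FPKM, with quartiles of 8550000 and 9440000 reads for mouse 7983. Of 2310 genes under 0.5 FPKM, 95.3% fitted whole multiples of 1 read, by a wider tolerance than for the members. A gene with few values above 0 passes easily, so that share is no test of the estimate. Whole reads were recovered for *Socs1*, *Socs4*, *Socs6* and *Cish* (tolerance 0.005 of a read) and are known up to a common multiple; no count test was run on them. Intervals on reads cover counting error only. The steps were tested on simulated data. Alternatives were another added value, other filters, scaling and variance settings, the pairs of mouse numbers as a block, and leaving out each mouse. Sequences are from RefSeq; none from chromosome 18, where *Socs6* lies, is printed.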

Additional observations from a re-analysis of the deposited data

How the results depend on the processing

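Over all genes, the counts called by limma at an adjusted p under 0.05, 2 lower and 1 higher, moved most. With no filter, and with a mean of at least 5 FPKM, 0 genes were lower and 0 higher (370 lower and 254 higher, and 162 lower and 117 higher, at an unadjusted p under 0.05). With quantile normalization 2 were higher and with equal medians 3. Without 1 mouse at a time, 5 to 12 were lower and 8 to 14 higher; there the lone library of a genotype is assumed to vary like the other pair. With the pairs of mouse numbers as a replicate block, 47 genes were lower and 24 higher, and none of the 7 members tested was called. The labels do not say what the numbers share. Deviations from the genotype means correlated at 0.50 between mice of neighbouring numbers, a hint from the data and not the design.

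The median log2 difference of the members other than *Socs3* stayed above 0, at 0.37 with a mean of at least 5 FPKM, which leaves 3 members, and at 0.08 to 0.19 without 1 mouse. The direction of *Socs1*, *Socs2*, *Socs3*, *Socs6* and *Socs7* was the same under all alternatives run, but the size was not. Leaving out 1 mouse at a time, *Socs2* ranged from 0.08 to 0.67, *Socs6* from 0.33 to 0.44 and *Socs7* from 0.08 to 0.39. Without 1 mouse, *Socs4* ranged from -0.03 (without *Rax* iCKO mouse 7983) to 0.20, *Socs5* from -0.29 to 0.24 (without *Rax* iCKO mouse 7983; 0.00 without control mouse 7984), and *Cish* from -0.12 (without control mouse 3911) to 0.29. Members lower in *Rax* iCKO with no overlap numbered 1 with a mean of at least 5 FPKM (4 members left) and 1 to 3 without 1 mouse, and those higher 1 and 3 to 4. The sum of the members other than *Socs3* was 1.06 to 1.31 times the control without 1 mouse. Depth limits *Socs1* most.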

Other observations

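For each member the 3 genes nearest in profile were found, by Euclidean distance of log2(FPKM + 1) over the 4 libraries after each gene's mean was taken off. A distance grows with the size of a gene's differences, so that of *Socs3*, chosen for its difference, carries that choice. The nearest to *Socs3* was *Ctsh*, the lysosomal protease cathepsin H, at a distance of 0.32 (153 and 145 FPKM in control mice 7984 and 3911, 51.7 and 49.95 FPKM in *Rax* iCKO mice 7983 and 3914), followed by *Optc*, a small proteoglycan of the eye, at 0.55 and *Ccdc122* at 0.56. The other 7 members had the last of their 3 neighbours at a distance of 0.02 to 0.15. Nearest to *Socs1* were *Hsd17b2*, *Msmo1* and *Rbpms*, and nearest to *Socs2* were *Gnb3*, *Pstk* and *Ctnna2*. *Gnb3*, a G protein subunit of cones and ON bipolar cells, read 965 and 1472 FPKM in control against 1377 and 1713 in *Rax* iCKO. Its order of libraries is that of *Socs2*, which follows from its choice by profile.

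Nearest to *Socs4* were *Donson*, *Utp6* and *Cbll1*, to *Socs5* *Ezh1*, *Ccdc141* and *Ndrg2*, and to *Socs6* *Csrnp3*, *Nckipsd* and *Rabggta*. Nearest to *Socs7* were *Gid4*, *Arnt* and *Asb7*, the last itself a SOCS box gene, and to *Cish* *9030612E09Rik*, *Hepacam* and *Plcb1*. With 4 libraries a profile has few degrees of freedom: ranked by Pearson correlation instead, 0 of these 24 genes were among the 3 highest of their member.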
